A study of Mus musculus with 11 samples.

Results

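The nuclear-encoded respiratory chain genes are the protein-coding genes outside the mitochondrial chromosome whose names start with Nduf, Sdh, Uqcr, Cox4i, Cox5, Cox6, Cox7, Cox8 or Atp5, without Cox6a2. This rule gave 89 of the 46078 rows of the count table. They comprise 78 subunits (33 of complex I, 4 of complex II, 9 of complex III, 16 of complex IV and 16 of complex V) and 11 assembly factors (6 for complex I, 4 for complex II and 1 listed with complex V). This split is by name: Ndufaf and Sdhaf names and Atp5sl were taken as assembly factors. Every other name, Atp5s among them, was counted as a subunit. The rows hold 88 distinct symbols, because a second Uqcrc1 row stands on a patch sequence and had 0 counts in all 11 libraries. A name rule is not a full parts list: Ndufs7, Ndufv3, Ndufb2, Ndufa9, Ndufa3, Ndufaf6 and Cox7b2 have another biotype in the table and were left out, as were 4 processed pseudogenes.

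RNA was measured in T cells sorted from kidneys of wild-type mice. All animals had been immunised with recombinant mouse myeloperoxidase (MPO) and given a low dose of sheep globulin raised against mouse basement membrane, which starts glomerulonephritis, and all kidneys were taken at day 21. The 4 groups were CD4+CD127-PD-1+ (n = 2 libraries), CD4+CD127+PD-1- (n = 3), CD8+CD127-PD-1+ (n = 3) and CD8+CD127+PD-1- (n = 3). CD127 is the alpha chain of the IL-7 receptor and PD-1 is an inhibitory receptor of activated T cells. Each library came from cells pooled over 3 mice, so its spread is between pools and not between animals. Mouse age is not given in the labels, no group of unimmunised mice is among these samples, and animals given the IL-7 receptor treatment named in the series title were not analysed here.

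The respiratory chain is built from subunits of both genomes. Complexes I (NADH dehydrogenase), III (cytochrome c reductase) and IV (cytochrome c oxidase) pump protons across the inner mitochondrial membrane, complex II (succinate dehydrogenase) feeds electrons from succinate without pumping, and complex V (ATP synthase) uses the gradient to make ATP. Complex II is encoded wholly in the nucleus, while the other complexes also need subunits made inside mitochondria. T cells raise mitochondrial mass and respiration when they are activated, and altered mitochondria have been described in T cells that keep PD-1 for a long time.

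Library totals ran from 10572505 to 16057310 counts, with 20514 to 21849 genes detected and 16365 tested. The sort was visible in the RNA. Il7r measured 13.8 to 27.2 CPM (library-size scaled counts, with TMM factors) in the CD127- libraries and 329 to 455 in the CD127+ libraries, and Cd4 measured 503 to 680 CPM in CD4 against 1.19 to 9.71 CPM in CD8 libraries. The 10 pan-T genes summed to 1427 to 2345 CPM, and none was called between the states. Other cell types moved with the sort. The 12 macrophage markers summed to 1362 to 2875 CPM in the CD127-PD-1+ and 161 to 364 CPM in the CD127+PD-1- libraries, and 11 and 12 of them rose in CD4 and CD8 cells. The 8 plasmacytoid dendritic cell markers summed to 134 to 469 CPM and 572 to 1502 CPM in the same order, and 5 and 4 of them fell. Proliferation genes rose in 7 of 8 cases in CD4 and 2 of 8 in CD8 cells, while the 14 kidney tubule genes (summed 15.1 to 266 CPM) had 12 tested and none called. Of 3 tested endothelial markers, 2 fell in each lineage, and 1 of 4 neutrophil markers rose in CD4 cells. In CD8 cells 3 of 5 B cell and 4 of 4 neutrophil markers rose too, with neutrophil sums of 36.0 to 226 CPM among CD8+CD127-PD-1+ and 2.15 to 11.7 CPM among CD8+CD127+PD-1- libraries. The part of these other cells in the values below was not tested, and fewer cells of a type and less RNA per cell cannot be told apart in bulk samples.

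In both lineages the nuclear-encoded chain as a whole differed little between the CD127/PD-1 states. Of 82 members tested, Uqcrc1 was the 1 called higher in CD4+CD127-PD-1+ than in CD4+CD127+PD-1- cells, and Cox7a2l the 1 called lower in CD8+CD127-PD-1+ than in CD8+CD127+PD-1- cells (edgeR quasi-likelihood test, Benjamini-Hochberg adjusted p under 0.05 over all tested genes). Among all tested genes 11.7% were called in the CD4 and 15.6% in the CD8 comparison. The median log2 fold change of the members was 0.14 in CD4 and 0.05 in CD8 cells, beside 0.02 and 0.01 for all genes. A 95% interval lying wholly between a 2-fold decrease and a 2-fold increase was obtained for 63 members in CD4 and 69 in CD8 cells, beside 46.1% and 49.7% of all genes. The members also had smaller standard errors, with medians of 0.25 and 0.22 beside 0.30 and 0.27 for all genes. Narrower intervals fall in that range more often at an equal change.

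The 2 promoter windows below belong to the members that passed the test between states, and are shown because the respiratory chain genes are a textbook case of genes sharing NRF1-type promoter motifs. They run from 250 bases before to 50 bases after the RefSeq start (GRCm38.p6). Capitals mark matches to the letters GCATGCGC (NRF1-type), searched on both strands.
Uqcrc1, chr9:108936398-108936697, plus strand: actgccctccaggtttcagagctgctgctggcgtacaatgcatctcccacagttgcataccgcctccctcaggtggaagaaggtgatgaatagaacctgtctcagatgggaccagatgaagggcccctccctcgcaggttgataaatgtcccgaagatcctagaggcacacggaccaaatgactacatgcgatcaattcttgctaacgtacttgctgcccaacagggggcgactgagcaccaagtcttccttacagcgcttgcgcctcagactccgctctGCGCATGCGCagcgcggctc
Cox7a2l, chr17:83514284-83514583, minus strand: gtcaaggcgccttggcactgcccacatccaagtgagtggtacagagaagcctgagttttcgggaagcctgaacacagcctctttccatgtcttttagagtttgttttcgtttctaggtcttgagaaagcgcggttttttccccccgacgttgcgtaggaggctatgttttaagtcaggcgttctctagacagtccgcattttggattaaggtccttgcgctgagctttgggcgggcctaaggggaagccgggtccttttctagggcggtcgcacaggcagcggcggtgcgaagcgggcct
The Uqcrc1 window holds 2 NRF1-type matches, 1 on each strand, that overlap in the capital run near its end, and the Cox7a2l window holds none. The Cox7a2l window lies at the RefSeq start, which is inside the longer GENCODE gene given further on, so it says nothing of the letters at the GENCODE start. Of 74 members with a window, 12 (16.2%) held an NRF1-type match, against 3.94% of 17492 protein-coding genes. CCGGAAGT (ETS-type) was found in 5 members (6.76%, against 5.69%) and AAGATGGC (YY1-type) in 8 (10.8%, against 3.57%), and 24 members (32.4%, against 12.3%) held at least 1 of the 3. Members of every complex were among them, for example Ndufa8, Sdhb, Uqcr11, Cox6a1 and Atp5g2 for the NRF1-type letters. A match describes letters in this window and is not a measured binding site.

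Complex I carries the largest number of members. Its 33 subunit genes summed to 384 and 496 CPM across the 2 CD4+CD127-PD-1+ libraries, to 373, 418 and 410 CPM among CD4+CD127+PD-1-, to 443, 556 and 463 CPM among CD8+CD127-PD-1+ and to 483, 410 and 542 CPM among CD8+CD127+PD-1- cells. The states overlapped in both lineages. None of the 32 tested subunits was called in any comparison of the main fit. A positive fold change was found for 20 and a negative one for 12 in CD4 cells, and for 18 and 14 in CD8 cells. Per kilobase of exon (all annotated exons of a gene, merged) the highest levels were those of the accessory subunits Ndufa13 (35.0 CPM per kb) and Ndufb9 (19.5). Ndufb4 and Ndufs5 were the lowest of the tested subunits, at 0.703 and 1.13 CPM per kb, and the hypoxia-linked form Ndufa4l2 had 6 counts in all libraries together and was not tested.

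Some complex I subunits had higher values in CD4+CD127-PD-1+ than in CD4+CD127+PD-1- cells without passing the test. Of 32 tested, 6 were higher without overlap, against 21.3% of all genes, and 1 was lower, against 19.4%. At unadjusted p under 0.05 it was 5 of 32, against 25.7% of all genes. The median of the complex was 0.05, and the CD4 median over all members changed sign with the libraries kept, as given further on. Ndufb9, an accessory subunit of the membrane arm, measured 20.5 and 22.3 CPM among CD4+CD127-PD-1+ and 14.2, 15.6 and 14.2 CPM among CD4+CD127+PD-1- cells. The groups did not overlap, and the log2 fold change was 0.54 (SE 0.16, adjusted p = 0.0520). Ndufb9 was called in 3 of 21 alternatives of this comparison. In CD8 cells its values were 23.9, 21.4 and 25.0 against 21.01, 17.4 and 24.0 CPM, which overlap (log2 fold change 0.17, adjusted p = 0.486). Ndufc2, another membrane-arm subunit, had the largest complex I difference in CD4 cells: 11.97 and 18.4 against 7.87, 10.1 and 9.86 CPM (0.71, SE 0.25, adjusted p = 0.0918). Ndufa4, now usually placed in complex IV, measured 11.3 and 22.4 against 10.4, 11.8 and 10.98 CPM (0.61, adjusted p = 0.184). Its 2 CD4+CD127-PD-1+ libraries stood apart from each other, and only the higher lay clear of the other group. The lowest fold changes were those of the weakly counted Ndufb4 in CD4 (-0.56, SE 0.41) and Ndufs5 in CD8 cells (-0.51, SE 0.52).

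In complex II no subunit was called between the states, and the medians were 0.27 in CD4 and 0.15 in CD8 cells. Sdha, the flavoprotein subunit that oxidises succinate, ran from 88.1 to 99.0 CPM over all 11 libraries, with log2 fold changes of -0.01 in CD4 and -0.04 in CD8 cells (95% intervals -0.23 to 0.20 and -0.24 to 0.15). Sdhb, the iron-sulfur subunit, and the membrane anchors Sdhc and Sdhd had differences of 0.25 to 0.40 in CD4 and 0.08 to 0.27 in CD8 cells, and none passed the test. The Sdhc libraries did not overlap in CD4 cells, at 19.03 and 23.36 against 16.99, 17.97 and 18.61 CPM. Sdhd had the highest level per length of the complex, 22.9 CPM per kb, next to Sdha at 22.7.

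In complex III, 1 gene in 1 library set the result. Uqcrc1 (ENSMUSG00000025651, chromosome 9, 108936633 to 108949623, GRCm38), a core subunit of cytochrome c reductase, measured 18.7 and 552 CPM across the 2 CD4+CD127-PD-1+ libraries. It measured 19.7, 17.0 and 18.4 CPM among CD4+CD127+PD-1-, 21.1, 28.2 and 23.9 CPM among CD8+CD127-PD-1+ and 38.3, 38.2 and 26.1 CPM among CD8+CD127+PD-1- cells. Replicate 2 of CD4+CD127-PD-1+ thus stood at 14.4 times the next highest library and at 29.5 times its own partner, while replicate 1 lay inside the range of the CD4+CD127+PD-1- libraries. The 8499 counts of the gene there made up 18.4% of all counts of the members in that library. In a search of all 11 libraries it was the 1 gene with at least 1000 counts and at least 10 times its level in every other library. Its annotated neighbours were low in that library, with 36 counts for Slc26a6, 11 for Celsr3, 11 for Col7a1 and 96 for Pfkfb4.

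The fitted log2 fold change of Uqcrc1 in CD4 cells was 3.95 (SE 0.85, adjusted p = 0.0123), and without replicate 2 of CD4+CD127-PD-1+ it was 0.03 (adjusted p = 0.970). It also passed for CD4 over CD8 within CD127-PD-1+ (3.55, SE 0.83, adjusted p = 0.0495), and without the same library that value was -0.40 (adjusted p = 0.585). The call in CD4 cells was also lost without replicate 2 of CD4+CD127+PD-1- (adjusted p = 0.0553) and with limma-voom (2.48, adjusted p = 0.199). For CD4 over CD8, leaving out any library other than replicate 1 of CD4+CD127-PD-1+ ended the call. The origin of the reads in that library was not tested. In the CD127+PD-1- state the 3 CD4 libraries lay below the 3 CD8 libraries, and the difference of -0.89 (SE 0.75, adjusted p = 0.614) became -0.91 (SE 0.18, adjusted p = 0.0159) without that library, since a single spread per gene is fitted over all groups. In the CD8 lineage the state difference was -0.49 (SE 0.74, adjusted p = 0.719), and -0.48 (SE 0.18, adjusted p = 0.0939) without it.

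The other complex III members were even between states. Without Uqcrc1, the 7 other tested subunits summed to 116 and 167 CPM among CD4+CD127-PD-1+ and 124, 153 and 155 CPM among CD4+CD127+PD-1- cells, and to 148, 180 and 137 against 166, 148 and 192 CPM in CD8 cells. Their states overlapped, with medians of -0.09 and -0.02 in CD4 and CD8 cells. Uqcrh, the hinge subunit, had the highest level per length (41.7 CPM per kb), followed by the small subunit Uqcr10 (22.6), and Uqcrc2, the other core subunit, ran from 36.0 to 49.98 CPM in all libraries. Uqcr11 had the lowest fold change of the complex in CD4 cells (-0.38, SE 0.39) and the highest in CD8 cells (0.23, SE 0.34), and was not called in either.

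**Figure D1:**
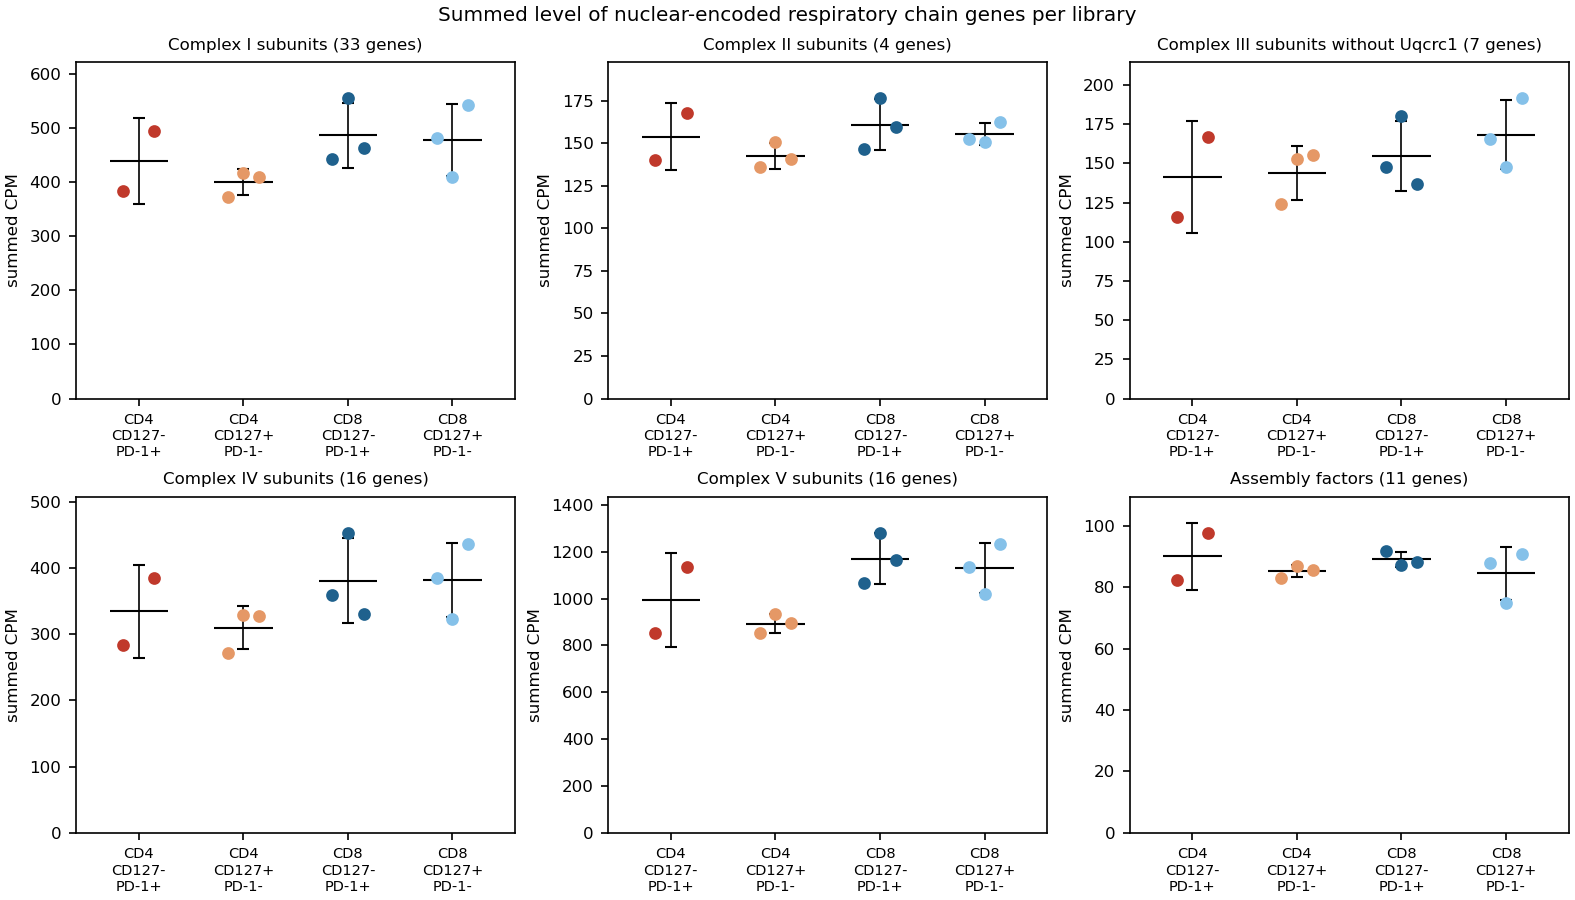
Summed level (CPM, vertical axis from 0) in each library of the 4 sorted groups. Panels show the subunits of each complex, with complex III drawn without Uqcrc1, and the assembly factors. Points are libraries, horizontal lines group means and bars SD (n = 2 for CD4+CD127-PD-1+, n = 3 otherwise). The states of a lineage overlap in each panel, and complex V runs from 851 to 1282 CPM.

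Complex IV held the member called in CD8 cells. Cox7a2l (ENSMUSG00000024248, chromosome 17, 83501918 to 83517330), also called SCAF1 and known for joining complexes III and IV into supercomplexes, measured 29.1, 40.4 and 29.3 CPM among CD8+CD127-PD-1+ and 57.7, 51.5 and 52.2 CPM among CD8+CD127+PD-1- cells. Every library of the first group lay below every library of the second, and the gene fell by 0.71 on the log2 scale (log2 fold change -0.71, SE 0.18, 95% interval -1.10 to -0.31, adjusted p = 0.0212). In CD4 cells it measured 20.9 and 29.4 against 29.9, 42.1 and 37.1 CPM, again without overlap, with a log2 fold change of -0.53 (SE 0.21, 95% interval -0.98 to -0.08, adjusted p = 0.125) that did not pass. The difference between the lineages was 0.17 (SE 0.27, 95% interval -0.42 to 0.77, adjusted p = 0.993). The CD8+CD127+PD-1- group was the highest of the 4, and the other 3 overlapped in part. The CD8 call was kept in 17 of 21 alternatives (adjusted p from 0.00315 to 0.0876). It was lost without replicate 1 (0.0697) or replicate 3 (0.0876) of CD8+CD127-PD-1+ and without replicate 1 of CD8+CD127+PD-1- (0.0666), with fold changes of -0.62, -0.63 and -0.65. It was also lost with the description number as a block (-0.65, adjusted p = 0.0579), where Atp5j was called instead (0.54, SE 0.11, adjusted p = 0.0141). Macrophage, B cell and neutrophil markers rose in the same comparison, as given above, and their part in the difference was not tested.

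The remaining complex IV subunits were not called between the states, and their signs were mixed. Of 11 tested, Cox7a2l included, 8 had a positive and 3 a negative fold change in CD4 cells, and 5 and 6 in CD8 cells. Cox7a2, the ubiquitous form of the same family, measured 14.0 and 17.7 against 15.9, 19.9 and 17.3 CPM in CD4 cells (-0.16, adjusted p = 0.721) and overlapped in CD8 cells too (-0.07, adjusted p = 0.864). Cox8a had the largest fold change of the complex in CD4 cells, with 30.7 and 42.6 against 21.6, 23.5 and 24.7 CPM (0.66, SE 0.28, adjusted p = 0.161), and Cox5a, which binds near the catalytic core, the largest in CD8 cells (0.40, adjusted p = 0.349). Per length, Cox6a1 (88.0 CPM per kb) and Cox8a (52.3) led. The tissue forms were nearly silent: the lung form Cox4i2 had 3 counts in all libraries together, the muscle forms Cox7a1 37 and Cox8b 4, and the testis forms Cox6b2 54 and Cox8c 0. Each was too low to test, while the ubiquitous partners Cox4i1 and Cox6b1 ran from 25.9 to 51.4 and from 15.7 to 36.4 CPM. Related genes and pseudogenes can share reads, and how such reads were counted is not given in the sources used here.

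Complex V had the highest levels. Atp5b (ENSMUSG00000025393, chromosome 10, 128083273 to 128090391), the catalytic beta subunit, led at 101 CPM per kb, ahead of the alpha subunit Atp5a1 at 62.6 and the gamma subunit Atp5c1 at 46.8. The 16 subunits summed to 852 and 1135 CPM among CD4+CD127-PD-1+, 851, 933 and 895 CPM among CD4+CD127+PD-1-, 1064, 1282 and 1165 CPM among CD8+CD127-PD-1+ and 1134, 1021 and 1235 CPM among CD8+CD127+PD-1- cells. The states overlapped, and no subunit was called in any comparison of the main fit. Atp5j, coupling factor 6 of the stalk, measured 61.4, 71.5 and 51.0 against 42.5, 38.3 and 50.4 CPM in CD8 cells (0.49, SE 0.16, adjusted p = 0.0602) and 47.7 and 61.9 against 39.3, 39.0 and 45.4 CPM in CD4 cells (0.41, SE 0.18, adjusted p = 0.168). Neither comparison overlapped, although the CD8 groups were separated by 51.0 against 50.4 CPM. Of 21 alternatives, 4 called Atp5j in CD8 cells and 0 in CD4 cells. The largest fold change in CD4 cells was that of the small subunit Atp5k (0.51, adjusted p = 0.516), where 1 library at 11.9 CPM stood above its partner at 3.50 CPM, and the lowest in CD8 cells was that of the epsilon subunit Atp5e (-0.28, adjusted p = 0.562). The 3 genes for the membrane ring subunit c were unequal: Atp5g3 stood at 15.97, Atp5g1 at 5.37 and Atp5g2 at 1.97 CPM per kb. Before division by length their means were 34.8, 26.4 and 3.30 CPM. Their annotated exons cover 2181, 4912 and 1675 bases, so the gap between Atp5g3 and Atp5g1 depends largely on the length used. Atp5l, the g subunit, was listed at 0.346 CPM per kb (2.23 CPM over 6443 exon bases) although it is a standard subunit. In addition, 3 of the pseudogenes left out carry its name or that of Atp5l2, so its level is uncertain.

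Assembly factors do not stay in the finished complexes. Their 11 genes summed to 82.5 and 97.9 CPM among CD4+CD127-PD-1+, 83.2, 87.1 and 85.7 CPM among CD4+CD127+PD-1-, 91.9, 87.3 and 88.3 CPM among CD8+CD127-PD-1+ and 88.0, 74.8 and 91.1 CPM among CD8+CD127+PD-1- cells, and none was called. Ndufaf7, a methyltransferase needed early in complex I assembly, measured 14.0, 12.2 and 13.6 against 10.4, 7.11 and 9.70 CPM in CD8 (0.54, SE 0.18, adjusted p = 0.0577) and 14.3 and 11.8 against 9.61, 9.45 and 9.49 CPM in CD4 cells (0.46, adjusted p = 0.164). Both comparisons were without overlap, and the CD8 difference was called in 1 of 21 alternatives. Ndufaf1, another early complex I factor, had the highest fold change of these factors in CD8 cells (0.58, SE 0.21, adjusted p = 0.0940), and Sdhaf1 the lowest (-0.59, SE 0.42, adjusted p = 0.391). Sdhaf2, which helps attach the flavin to Sdha, had a fold change of 0.41 in CD4 cells (adjusted p = 0.253), without overlap. Atp5sl, listed with complex V by its name and given as Dmac2 in the annotation, had fold changes of -0.31 and -0.20.

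Counts of members whose libraries did not overlap between states were set against all tested genes. In CD4 cells 12 members were higher and 4 lower without overlap, against 21.3% and 19.4% of all genes. In CD8 cells 6 were higher and 4 lower, against 18.0% and 16.4%. Higher in both lineages were Atp5g1, Atp5j and Ndufaf7, which are 3 of the 12 and 3 of the 6, and lower in both was Cox7a2l, which is 1 of the 4 in each. Among all genes 10.6% were higher and 9.47% lower in both without overlap; the difference between members and all genes was not tested. The state by lineage test of edgeR called none of the 82 members, against 0.00611% of all genes, and DESeq2 called 0. At unadjusted p under 0.05 it was 1 member, Uqcrc1, against 5.48% of all genes.

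**Figure D2:**
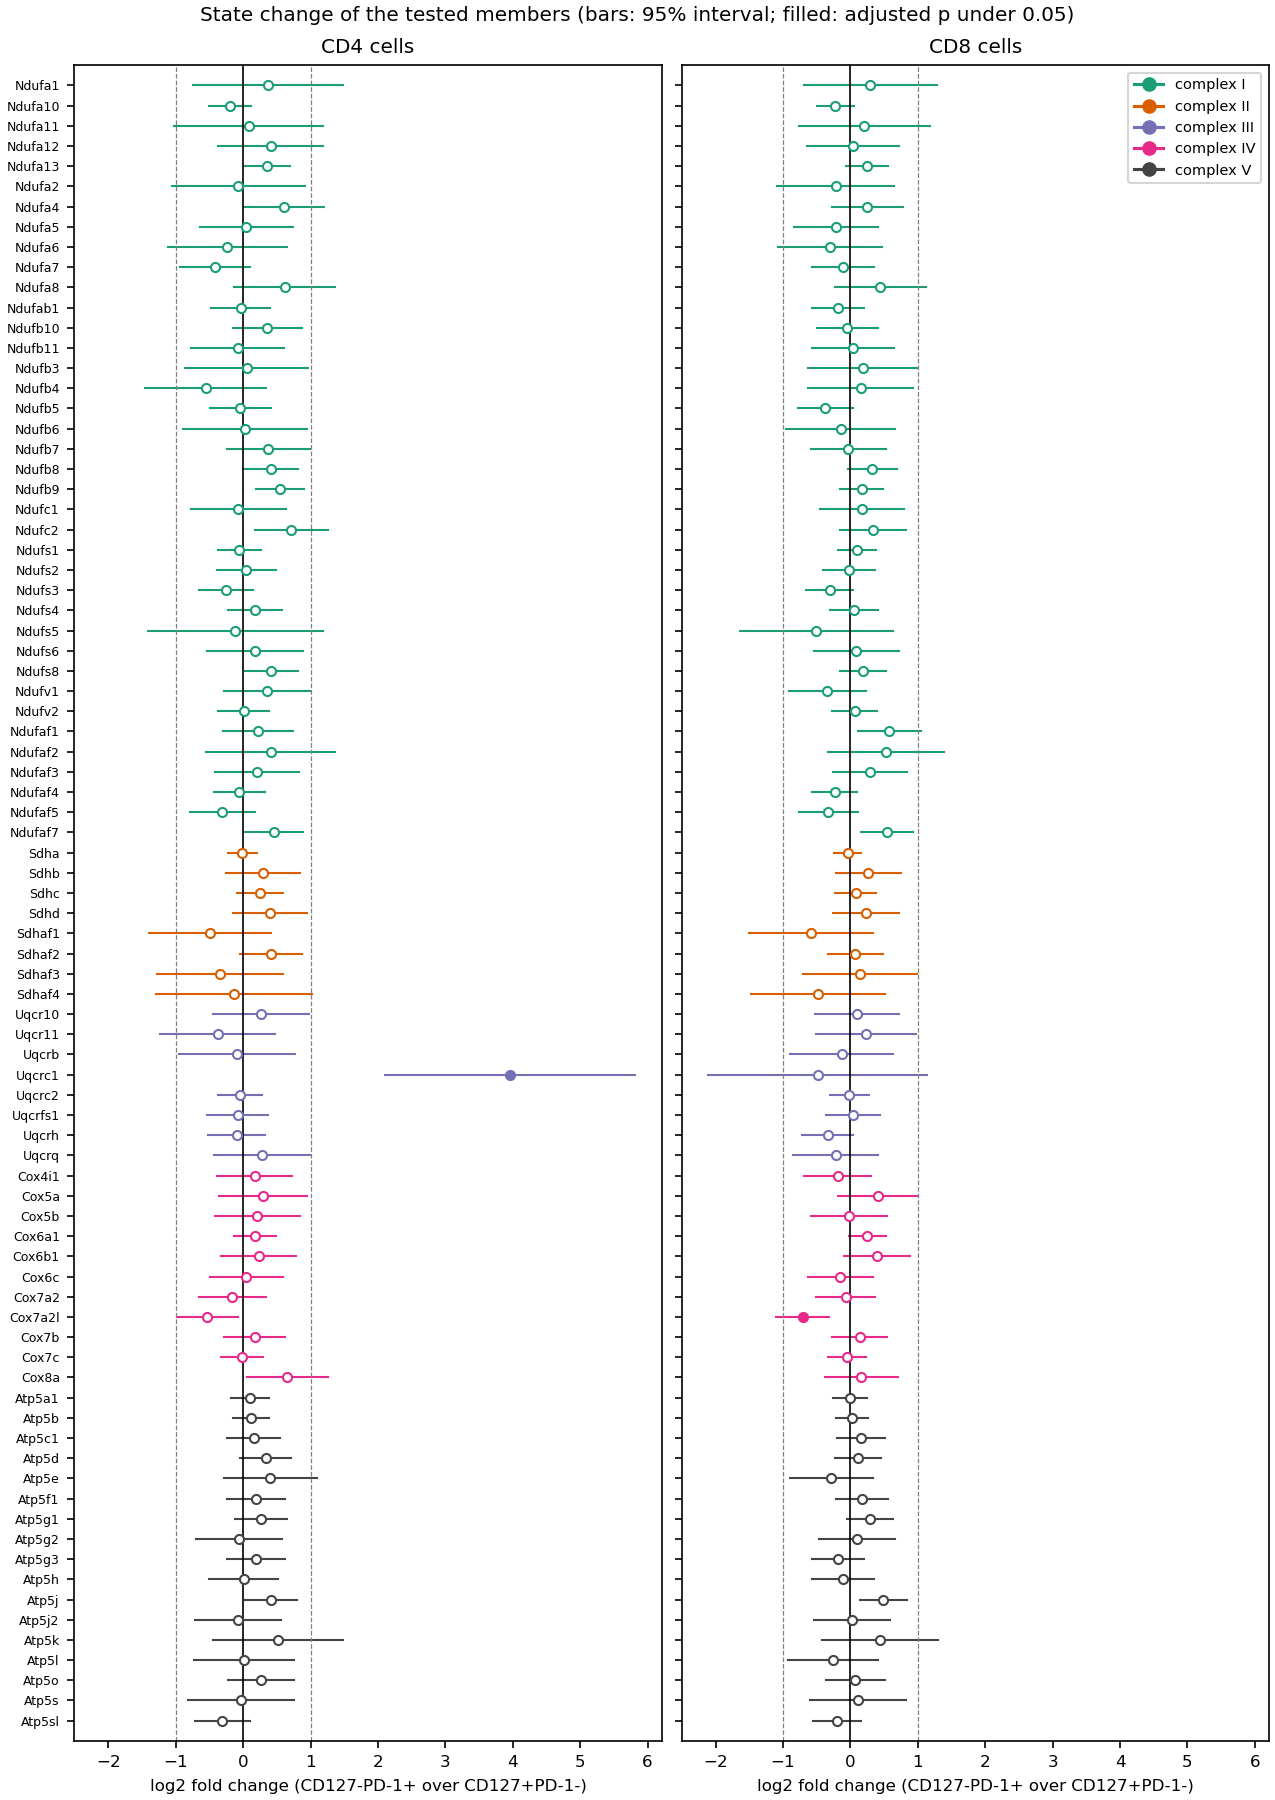
Log2 fold change of CD127-PD-1+ over CD127+PD-1- cells (horizontal axis) for each of the 82 tested members in CD4 and CD8 cells, coloured by complex, with 95% intervals. Filled points passed an adjusted p of 0.05 (Uqcrc1 in CD4, Cox7a2l in CD8), dashed lines mark 2-fold, and 63 and 69 intervals lie between them.

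Between the lineages the members leaned to lower values in CD4 cells. In the CD127+PD-1- state 71 of 82 members had a lower level in CD4 than in CD8 cells, with a median log2 difference of -0.21 beside -0.01 for all genes. In the CD127-PD-1+ state it was 63 of 82, with a median of -0.15 beside -0.02. No member was called by edgeR in the CD127+PD-1- comparison, where 4.42% of all genes were called. At unadjusted p under 0.05 it was 10 of 82 members, against 17.7% of all genes, and with DESeq2 3 members of 82 were called, against 7.32% of all genes. By that Wald test these were Atp5b (-0.40, adjusted p = 0.0262), Ndufb9 (-0.51, adjusted p = 0.0374) and Sdhaf1 (1.44, adjusted p = 0.0479). Uqcrc1 alone was called in the CD127-PD-1+ comparison, where 2.44% of all genes were called, and it rests on the 1 library described above. Without overlap, 17 members were lower and 1 higher in CD4 cells in the CD127+PD-1- state, against 10.9% and 11.9% of all genes. In the CD127-PD-1+ state 6 were lower and 1 higher, against 13.5% and 14.3%. Leaving out 1 library at a time moved the median between -0.33 and -0.12 in the CD127+PD-1- state. In the CD127-PD-1+ state it moved between -0.41 (without replicate 2 of CD4+CD127-PD-1+) and 0.08 (without replicate 1), so its direction rests on which of those 2 libraries is kept.

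By complex, the medians in the CD127+PD-1- state were -0.31 for complex I (29 of 32 lower), -0.19 for complex II (4 of 4), -0.24 for complex III (7 of 8), -0.21 for complex IV (11 of 11) and -0.23 for complex V (15 of 16). The exception in complex V was Atp5s (0.31, adjusted p = 0.704), counted as a subunit by its name. The assembly factors had a median of 0.02 with 5 of 11 lower. Atp5b, the most abundant member, measured 352, 378 and 352 CPM among CD4+CD127+PD-1- and 475, 453 and 496 CPM among CD8+CD127+PD-1- cells. The groups stood clear of each other, with a log2 difference of -0.40 (SE 0.11, 95% interval -0.64 to -0.16, adjusted p = 0.0708). Atp5b was called in 5 of 21 alternatives, among them no count filter (adjusted p = 0.0449) and compared groups only (adjusted p = 0.0374). Some of those 5 leave CD4+CD127-PD-1+ with 1 library. In the CD127-PD-1+ state Atp5b measured 341 and 442 against 434, 505 and 508 CPM, which overlap (-0.30, adjusted p = 0.311). Atp5a1 differed by -0.38 (SE 0.12, adjusted p = 0.0990) and Ndufb9 by -0.51 (SE 0.15, adjusted p = 0.0846) in the CD127+PD-1- state, both without overlap and neither called in the main fit. Of 21 alternatives, 1 called Ndufb9 (the DESeq2 Wald test) and 0 called Atp5a1. Kidney tubule genes, whose cells are rich in mitochondria, summed to 141, 71.4 and 52.4 CPM among CD4+CD127+PD-1- and 266, 160 and 15.1 CPM among CD8+CD127+PD-1- libraries. In the same order of libraries, the members without Uqcrc1 summed to 1839, 2071 and 2014 CPM and to 2408, 2128 and 2658 CPM. The part of tubule RNA in the lineage difference was not tested.

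Sdhaf1 went the other way. This factor, which delivers iron-sulfur clusters to Sdhb (ENSMUSG00000074211, chromosome 7, 30321406 to 30323895), measured 1.74, 2.53 and 2.42 CPM among CD4+CD127+PD-1- and 0.539, 1.10 and 0.832 CPM among CD8+CD127+PD-1- cells. It measured 1.55 and 1.62 CPM among CD4+CD127-PD-1+ and 0.438, 0.523 and 0.670 CPM among CD8+CD127-PD-1+ cells. All 5 CD4 libraries lay above all 6 CD8 libraries. The log2 differences were 1.43 (SE 0.39, 95% interval 0.59 to 2.28, adjusted p = 0.0612) and 1.53 (SE 0.44, 95% interval 0.57 to 2.48, adjusted p = 0.113), and neither passed in the main fit. In the CD127+PD-1- state Sdhaf1 was called in 1 of 21 alternatives, the DESeq2 Wald test. The gene is weakly counted, with 185 counts in all libraries together.

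**Figure D3:**
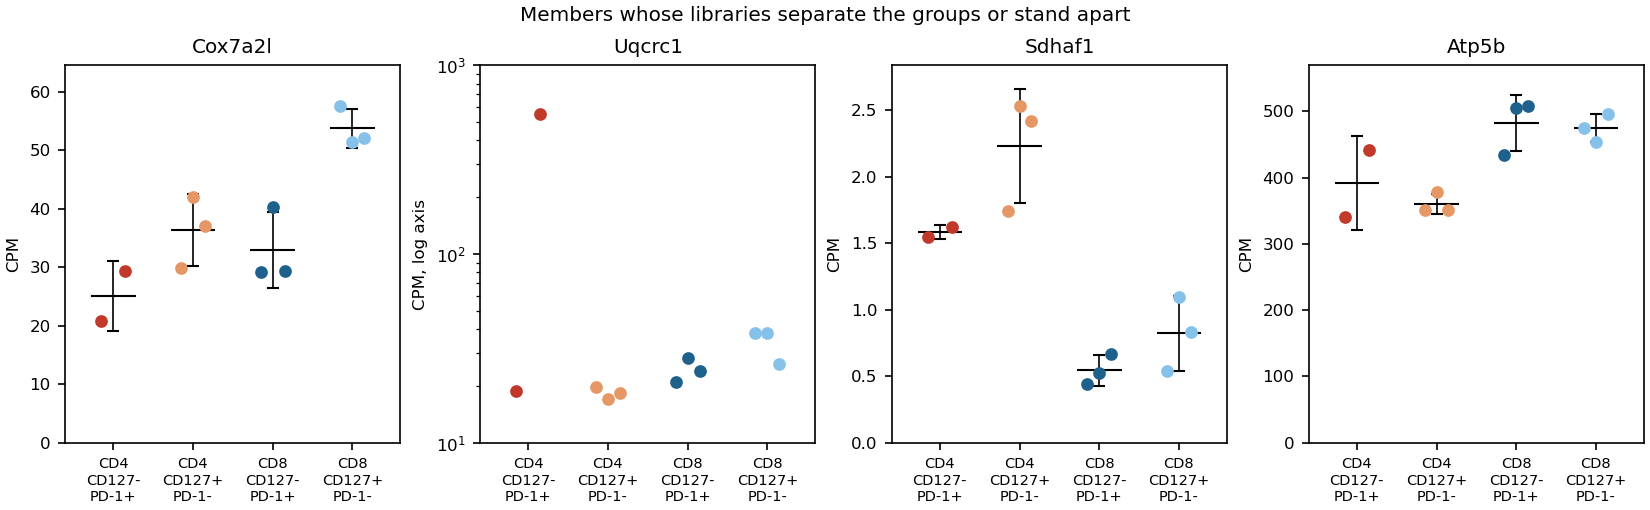
Level in each library (CPM, vertical axis) of Cox7a2l, Uqcrc1, Sdhaf1 and Atp5b in the 4 sorted groups. Lines and bars are group means and SD, not drawn for Uqcrc1, whose axis is logarithmic. Uqcrc1 stands at 552 CPM in 1 library and at 17.0 to 38.3 CPM in the other 10, and the 5 CD4 libraries lie above the 6 CD8 libraries for Sdhaf1.

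The mitochondrially encoded subunits, which are made by another polymerase from another genome, rose in CD8 cells. All 8 tested genes of this list rose in CD8+CD127-PD-1+ over CD8+CD127+PD-1- cells, with a median log2 fold change of 1.24. None was called in CD4 cells, where the median was 0.00. Summed over the 13 genes the levels were 30940, 35947 and 48161 CPM among CD8+CD127-PD-1+ against 20058, 19407 and 17884 CPM among CD8+CD127+PD-1- cells, without overlap. In CD4 cells they were 20847 and 15415 against 17244, 18384 and 17284 CPM. The nuclear-encoded members without Uqcrc1 summed in the same CD8 libraries to 2252, 2734 and 2344 against 2408, 2128 and 2658 CPM. In CD4 libraries they summed to 1858 and 2447 against 1839, 2071 and 2014 CPM.

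mt-Co1, the catalytic subunit of complex IV, was the most abundant of the list, with a log2 fold change of 0.80 in CD8 cells (SE 0.13, adjusted p = 0.00207). mt-Nd5 and mt-Nd4 of complex I rose by 1.24 each (adjusted p = 0.00101 and 0.00273), and mt-Cytb of complex III by 1.26 (adjusted p = 0.00327). The ratio of the mitochondrially encoded to the nuclear-encoded sum (without Uqcrc1) was 15.8 ± 4.11 (SD, n = 3) in CD8+CD127-PD-1+ against 8.06 ± 1.22 (n = 3) in CD8+CD127+PD-1- cells. Its 3 values of 13.7, 13.1 and 20.5 lay above the 8.33, 9.12 and 6.73 of the other group. In CD4 cells it was 8.76 ± 3.48 (n = 2) and 8.95 ± 0.40 (n = 3). Within CD127-PD-1+, 7 of the 8 genes were called lower in CD4 than in CD8 cells, whereas the state by lineage test called 0 of them (median -1.13). Mitochondrial ribosomal RNA moved alongside, at 35.7, 40.3 and 40.8% of counts in CD8+CD127-PD-1+ and 28.1 to 31.8% in the other 8 libraries. The part of that RNA share in the difference was not tested. The list is incomplete as counted: mt-Co2, mt-Co3, mt-Atp8 and mt-Nd4l were listed at 0 in all libraries, mt-Atp6 at most at 0.0744 CPM and mt-Nd3 at most at 3.05 CPM.

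**Figure D4:**
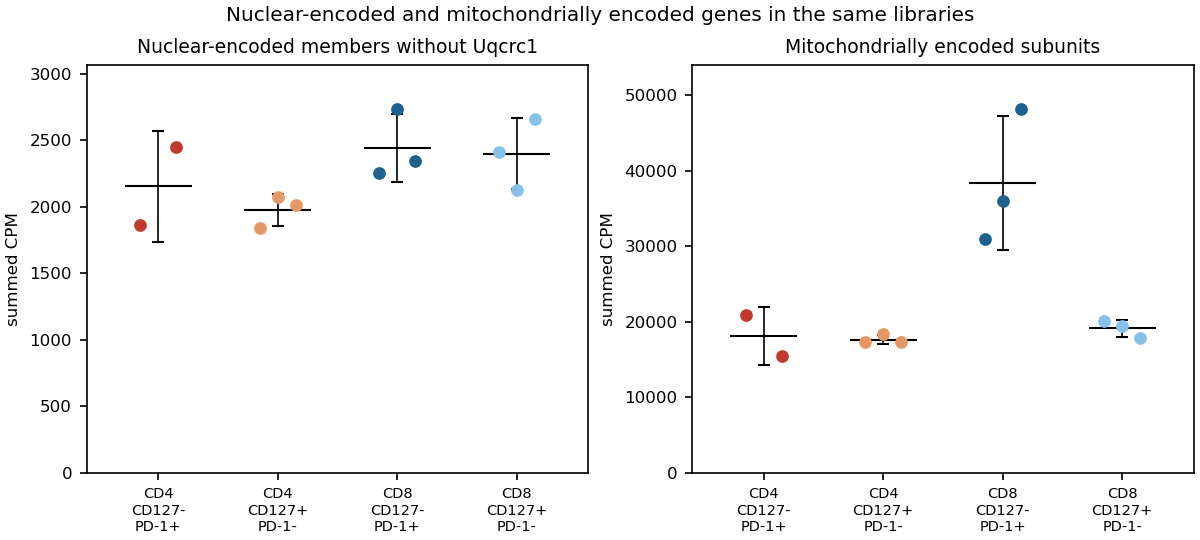
Summed level (CPM, vertical axes from 0, on different scales) of the nuclear-encoded members without Uqcrc1 and of the 13 mitochondrially encoded subunits in each library. Lines and bars are group means and SD (n = 2 for CD4+CD127-PD-1+, n = 3 otherwise). The 3 CD8+CD127-PD-1+ libraries stand above the other 8 for the mitochondrially encoded sum and overlap them for the nuclear-encoded sum.

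Genes that work with the chain but have other names were read against the 11.7% (CD4) and 15.6% (CD8) of all genes called between the states. Of 42 tested electron carriers and assembly and insertion factors, 1 rose and 2 fell in CD4 cells and 1 fell in CD8 cells. Higd1a, a small inner membrane protein that associates with complexes III and IV, fell in both: 17.4 and 18.9 against 30.5, 38.3 and 24.0 CPM in CD4 (-0.77, SE 0.23, adjusted p = 0.0495) and 18.5, 16.4 and 23.8 against 29.8, 40.3 and 31.3 CPM in CD8 cells (-0.79, SE 0.20, adjusted p = 0.0207). Atpif1, the inhibitor of ATP synthase, rose in CD4 cells (0.71, SE 0.21, adjusted p = 0.0435), and Lyrm7, which inserts the Rieske protein into complex III, fell there (-1.78, SE 0.52, adjusted p = 0.0455). Lyrm7 is weakly counted, at 0.336 and 1.17 CPM among CD4+CD127-PD-1+ and 2.74, 3.15 and 1.95 CPM among CD4+CD127+PD-1- cells. Coa5 was the most abundant of this list, at 76.7 to 110 CPM. Of 17 regulators of mitochondrial biogenesis, 1 was called in CD4 and 3 in CD8 cells, the latter a share near that of all genes. Hcfc1, a transcriptional cofactor, rose in CD4 cells (0.48, adjusted p = 0.0498). In CD8 cells Polg2, the accessory subunit of the mitochondrial DNA polymerase (-0.60, adjusted p = 0.0147), the coactivator Ppargc1b (-0.86, adjusted p = 0.0169) and Tfb2m, a mitochondrial transcription factor (-0.56, adjusted p = 0.0411), fell. Hif1a had the highest level of that list, at 123 to 649 CPM. None of 18 tricarboxylic acid cycle enzymes was called in either state comparison, Ogdh being the most abundant at 101 to 123 CPM.

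Libraries of 1 group also differed among themselves. The sample descriptions carry a number that is not the replicate number, and the libraries with description number 3 had median member deviations from their group mean of 0.23 (CD4+CD127-PD-1+), 0.06 (CD4+CD127+PD-1-), 0.23 (CD8+CD127-PD-1+) and 0.22 (CD8+CD127+PD-1-) in log2 CPM. Of 82 members, 74, 51, 64 and 70 lay above the group mean there. The pattern was not particular to that number: replicate 2 of CD4+CD127+PD-1-, with description number 2, had a median deviation of 0.06, 56 members above the mean and a rho with exon length of -0.25. In CD4+CD127-PD-1+, with 2 libraries, the deviation of one is the mirror of the other. The median over all genes lay within 0.02 of 0 in every library. In those 4 libraries short members deviated upward more than long ones (Spearman rho of deviation with exon length across members -0.37, -0.30, -0.40 and -0.31, against -0.07, -0.01, -0.08 and -0.07 across all genes). What the number stands for is not given in the labels, and its part in the values was not tested. The CD4 state median of 0.14 moved to -0.12 without replicate 2 of CD4+CD127-PD-1+ (its library with number 3), to 0.38 without replicate 1, and to -0.16 without the 4 libraries numbered 3, so its sign rests on 1 library. In CD8 cells, leaving out 1 library at a time moved the median between -0.11 and 0.15.

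**Figure D5:**
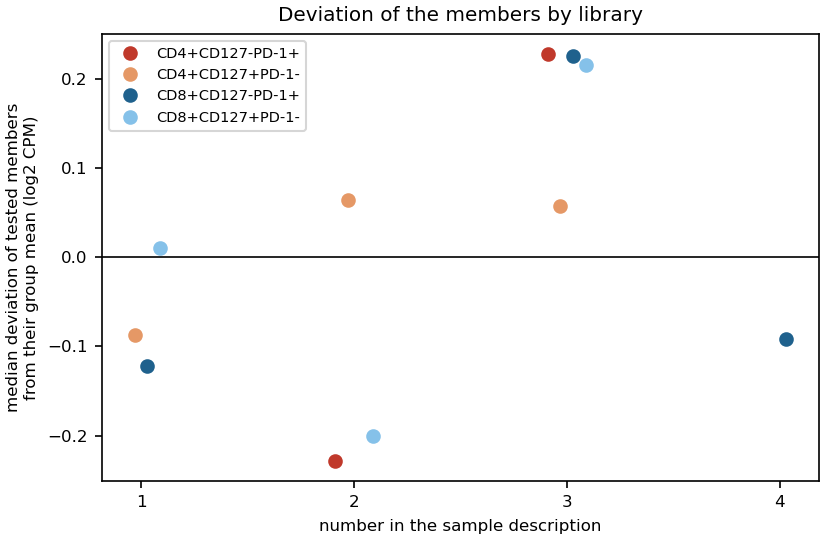
Median deviation of the 82 tested members from their group mean (log2 CPM, vertical axis) for each of the 11 libraries, against the number in the sample description (horizontal axis), coloured by group. The libraries with number 3 lie at 0.06 to 0.23.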

How the data were processed

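The authors deposited raw read counts per gene, which were used as deposited. The tools were STAR and featureCounts on GRCm38, per the submitters' processing notes. Their versions, the annotation and the strandedness are not given in these sources, so reads of overlapping, antisense or near-identical genes cannot be told apart. Per the labels' protocols, 2 ng of RNA was amplified by single primer isothermal amplification and read as 75-base single reads. Of the count columns, 11 matched labelled samples and 1 unlabelled column was not used. Per the labels, 1 more CD4+CD127-PD-1+ pool did not pass quality control.

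The tests were run with edgeR 4.0.16 (R 4.3.3): filterByExpr at default settings (16365 genes), TMM scaling, a quasi-likelihood fit with a mean per group over all 11 libraries, and Benjamini-Hochberg adjustment over all tested genes at 0.05. The common biological coefficient of variation was 0.244. The fit was tested on simulated counts for the CD8 state only. There it called 57 of 100 genes changed by 1 and 96 of 100 changed by 2 on the log2 scale, all placed in well counted genes. No other gene was changed in the simulation, whereas 2555 genes were called in the real CD8 comparison. The members ran from -0.71 to 0.58 there, and sizes under 1 were not simulated. These rates therefore do not give the sensitivity for the members. The other comparisons, among them those with 2 libraries in a group, were not simulated. CPM use TMM-scaled library sizes, and log2 CPM a prior count of 2. SE is the fold change over the root of F. p-values measure the spread between these pools, which may be partly technical. Alternatives were DESeq2 1.42.0 (Wald test and size factors), limma-voom (limma 3.58.1), no count filter, mitochondrial chromosome genes left out, replicate blocks, compared groups only, and each library left out; leaving out description number 3 or Uqcrc1 was added after seeing the data. Lengths and coordinates are from GENCODE M21, where 45229 of the 46078 identifiers and 88 members were found, and promoters from RefSeq (GRCm38.p6). Figures used matplotlib 3.10.9.

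Members and lists were chosen with earlier results of these data known. Named are members called in any comparison, the 2 with the highest CPM per kilobase and the largest and smallest fold change per complex (assembly factors included), paralogs and tissue forms, untested members and, per context list, the most abundant and up to 4 called genes; Ndufaf7, Atp5j and others without overlap between groups were chosen after their values were seen.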

Additional observations from a re-analysis of the deposited data

How the results depend on the processing

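Counts are of members called, and brackets give the share of all genes called in the same setting and comparison. DESeq2 size factors gave 0 higher for CD4 against CD8 in CD127-PD-1+ (2.38%). The DESeq2 Wald test gave 2 higher for the CD4 state (12.6%) and 1 higher for the CD8 state (16.9%). For CD4 against CD8 in CD127+PD-1- it gave 1 higher and 2 lower (7.32%). Limma-voom gave 0 higher for the CD4 state (10.3%) and 0 for CD4 against CD8 in CD127-PD-1+ (2.1%). No low-count filter gave 1 lower for CD4 against CD8 in CD127+PD-1- (4.16%) and 1 higher for state by lineage (0.291%). With mitochondrial chromosome genes left out, CD4 against CD8 in CD127-PD-1+ had 0 higher (2.37%). Compared groups only gave 2 lower in CD127+PD-1- (5.12%) and 0 higher in CD127-PD-1+ (1.41%). Without description number 3, the CD4 state had a median of -0.16. That setting leaves CD4+CD127-PD-1+ with 1 library, so its calls are not listed. Without Uqcrc1, the CD4 state (11.7%) and CD4 against CD8 in CD127-PD-1+ (2.44%) had 0 higher. Where no value above shows it, the cause was not tested.

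Leaving out 1 library at a time gave 0 to 2 higher for the CD4 state (median -0.12 to 0.38), 0 to 1 higher and 0 to 1 lower for the CD8 state (median -0.11 to 0.15), 0 to 2 lower for CD4 against CD8 in CD127+PD-1- (median -0.33 to -0.12), 0 to 1 higher in CD127-PD-1+ (median -0.41 to 0.08) and 0 to 1 higher for state by lineage (median -0.17 to 0.29). Where this left CD4+CD127-PD-1+ with 1 library, that library was assumed to vary like the other groups. The share of all genes called moved too, in the CD8 state from 15.6% to 9.09% without replicate 3 of CD8+CD127-PD-1+. In the CD4 and CD8 state comparisons, 53 of 1341 values of uncalled named members across settings changed sign, the largest of them 0.62 in size. Sign changes in the other comparisons were not counted.

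The replicate number as a block gave 0 higher for the CD4 state (12.3% of all genes called) and 1 higher for the CD8 state (17%). It gave 0 higher for CD4 against CD8 in CD127-PD-1+ (2.51%). The description number as a replicate block gave 1 higher and 0 lower for the CD8 state (12.6%) and 0 higher for CD4 against CD8 in CD127-PD-1+ (2.05%). Deviations of same-numbered libraries correlated over 0.1 in 7 of 15 pairs by replicate number and 10 of 12 by description number. Of the libraries, 6 of 11 and 8 of 10 correlated best with their own number. The median correlation of same-numbered pairs was 0.001 by replicate number and 0.15 by description number, against -0.004 and -0.08 for other pairs. Deviations sum to 0 within a group, so likeness in some pairs lowers the correlation in others, and the contrast with other pairs is partly fixed by this. Within that limit, same-numbered libraries were more alike by description number, though not in every pair. The main fit had no block for either number. With 2 or 3 libraries a group, the median SE of the members was 0.22 to 0.25 in the 4 comparisons of groups and 0.33 for state by lineage, which limits the differences that could be detected.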
